A study of Mus musculus with 16 samples.

Results

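The genes described here are 10 components of the NF-kB pathway, taken by symbol from the 27998 genes counted by single-cell RNA sequencing of mouse bone marrow, and all 10 were present in all 8 libraries. They comprise 4 subunits of the transcription factor (Nfkb1, Nfkb2, Rel and Relb), 4 inhibitors or feedback regulators (Nfkbia, Nfkbie, Nfkbiz and Tnfaip3) and a pair of signalling components (Traf1 and Birc3). Bone marrow came from C57BL/6 mice labelled as 6-12 weeks old, depleted of lineage-positive cells. Both genotypes carried the floxed Tet2 allele. Tet2-WT mice were Tet2fl/fl without Cre, and Tet2-KO mice were Vav-Cre-Tet2-/-, in which the Vav promoter drives Cre in blood-forming cells. Mice of each genotype received intraperitoneal recombinant IL1b (IL-1ß in the labels; 500 ng a day for each mouse) or vehicle over 5 weeks. Each of the 4 groups held 4 mice, and each library pooled 2 mice of 1 group (mice 1 and 2, or mice 3 and 4) that were told apart by hashtag antibodies.

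NF-kB dimers are held in the cytoplasm by IkB proteins until a signal, such as IL1b binding to its receptor, activates the IkB kinase and the IkB is degraded. The freed dimers enter the nucleus and switch on inflammatory genes together with their own inhibitors, so that the signal is limited by feedback. In bone marrow this pathway links inflammation to the output of myeloid cells by stem and progenitor cells.

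The files held 121405 barcodes, of which 94917 passed the filters on genes and mitochondrial UMIs (unique molecular identifiers, counted mRNA molecules), and 57896 of those were assigned to 1 mouse. Depth was 4388604 to 44152768 UMIs per mouse, and 1061 of 93850 distinct barcodes (1.13%) occurred in more than 1 library. Cells were placed into types by gates on UMIs of marker genes, which took in 40700 cells, and 15 types had enough mice to be tested. The types are named after their markers as "-like" cells, except for 2 gates whose leading genes did not bear out the name: the Mpo+ Cd34+ progenitors and the Gata2+ progenitors, which are called by their rule. Other gates also overlapped with neighbouring types. By clustering, 50.0% of the monocyte-primed progenitor-like cells lay with granulocyte progenitors. Of the multipotent progenitor-like cells, an untested type, 47.8% lay with HSC. Tet2 itself does not test the genotype in these 3′ counts: its level over all cells of a mouse was 31.0 to 46.9 CPM in WT and 36.4 to 46.2 CPM in Tet2-KO mice with vehicle, and it was 53.4 to 61.7 and 59.1 to 77.9 CPM with IL1b. CPM here are UMIs per 1000000 UMIs of the mouse in that cell type, with TMM scaling. Only UMIs of genes that passed a filter on low counts in that type enter the total, so the total covers different genes in different types. CPM are unscaled and over the UMIs of all genes for Tet2, under a rule by hashtag ratio, in cells without a hashtag call, in untested types and for levels given as 3 UMIs. As a measure of free RNA from burst cells, the mean of the neutrophil gene Camp in the other types was 0.040% to 0.105% of that in neutrophil-like cells. By Elane, a gene of granulocyte progenitors that other myeloid cells can express, the level was 1.02% of that in granulocyte progenitor-like cells in HSC-like cells, 1.28% in NK/T-like, 1.38% in CFU-E-like and 4.06% in plasma-like cells. In bulk sums such as these, fewer expressing cells and less RNA per cell cannot be told apart, so shares of cells are given beside the levels where they were measured.

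IL1b raised the transcripts of these genes in many cell types, and no pair was called lower. Of the 150 pairs of gene and cell type, 108 passed the filter on low counts. In WT mice, 51 pairs were higher with IL1b than with vehicle at an adjusted p under 0.05 (edgeR quasi-likelihood test, Benjamini-Hochberg over all genes of the type) and 0 were lower, where 3.84% of all tested pairs were called higher and 5.77% lower. In Tet2-KO mice, 62 were higher and 0 lower, against a background of 5.25% and 6.96%. The median log2 fold change of the pairs that passed was 1.25 in WT and 1.31 in Tet2-KO mice, beside 0.03 and 0.02 over all genes tested, and a scarce gene could pass through its IL1b mice alone. Every IL1b mouse lay above every vehicle mouse in 59 pairs in WT (background 7.01%) and in 61 in Tet2-KO mice (8.39%). With only mice 1 and 2 of each group, the calls fell to 21 in WT and 19 in Tet2-KO mice, and with only mice 3 and 4 they were 52 and 57. With mice 1 and 2 only, 73 of the 108 pairs were tested as well. There 13 of the WT and 17 of the Tet2-KO calls had no test, while 18 and 26 were lost. Leaving out any 1 mouse gave 42 to 59 calls in WT and 45 to 63 in Tet2-KO mice.

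**Figure D1:**
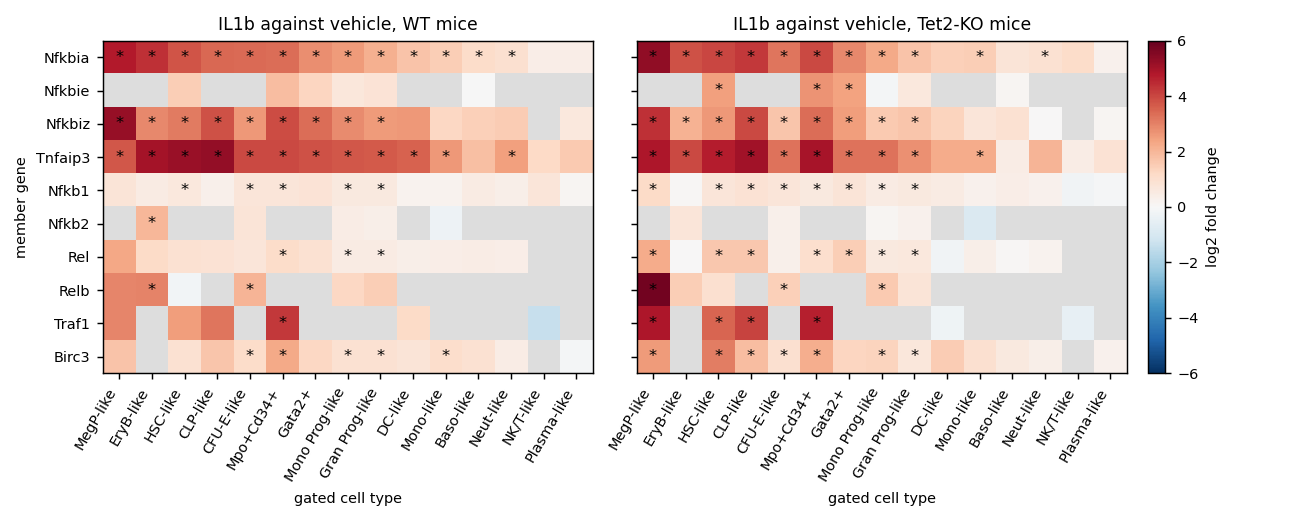
Log2 fold change of each of the 10 genes (rows) with IL1b against vehicle in each of 15 cell types (columns), in WT and in Tet2-KO mice. An asterisk marks an adjusted p under 0.05 and grey a pair that did not pass the filter; Nfkbia and Tnfaip3 carry asterisks in 13 and 12 types in WT mice and in 11 and 10 in Tet2-KO mice.

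One WT mouse stood apart. WT IL1b mouse 1 lay near the vehicle mice for several of these genes in HSC-like, megakaryocyte progenitor-like, CLP-like (common lymphoid progenitor) and Mpo+ Cd34+ cells. Mouse 2, from the same library, was high in these types, except that it had too few CLP-like cells to be measured. With another hashtag rule, by the ratio of both hashtags, which gave many mice another number of cells (150 in place of 12 HSC-like cells in WT IL1b mouse 4), mouse 1 still had 34.3 CPM of Nfkbia in 71 megakaryocyte progenitor-like cells, while mouse 2 had 1140.4 CPM in 81. In HSC-like cells that rule left mouse 1 only 6 cells, with 8 Nfkbia UMIs (200.9 CPM), where the WT vehicle mice had 51.8 to 56.3 CPM. Without mouse 1 the calls in WT mice were 59 in place of 51. In HSC-like cells they were 7 in place of 4, in megakaryocyte progenitor-like cells 6 in place of 3, in CLP-like cells 5 in place of 3, and in Mpo+ Cd34+ cells 8 in place of 7. Leaving out each mouse in turn was planned, but mouse 1 was singled out after its low levels of these same genes were seen. A rise in calls without it is therefore no test of the response. Dixon's criterion for outliers, used below, flagged this mouse in none of the groups examined. For these 10 genes, the WT results in these types are given with and without this mouse.

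Of the inhibitors and feedback regulators, Nfkbia was the most widely changed. Nfkbia (ENSMUSG00000021025, GRCm38 chr12:55489410-55492647, minus strand) encodes IkBa, the inhibitor that is degraded on stimulation and resynthesised by NF-kB itself. It rose in 13 of 15 types in WT mice and in 11 of 15 in Tet2-KO mice.

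NF-kB binds decameric κB sites, and the promoters of these genes were searched for them. In the 250 bases before each start site in RefSeq (GRCm38.p6), 7 of the 10 genes had an entry, and Nfkbiz, Nfkb1 and Relb were not among them. A match to the κB consensus on either strand was found in 5 of those 7 genes (Nfkbia, Nfkbie, Tnfaip3, Nfkb2 and Rel) and not in Traf1 or Birc3, while 4.46% of all 27025 genes in the table held one. A match is a string of letters and not a site shown to be bound, and its part in the changes with IL1b was not tested. The promoters of Nfkbia (chr12:55492648-55492897, minus strand, the match on the opposite strand), Nfkbie (chr17:45555450-45555699, plus strand) and Rel (chr11:23770971-23771219, minus strand, overlapping matches on both strands) are shown without annotated exon bases, of which only that of Rel held 1. The windows of Tnfaip3 (chr10:19015516-19015545, and chr10:19015411-19015432 with the match on the opposite strand, minus strand) and Nfkb2 (chr19:46304689-46304717 with overlapping matches on both strands, chr19:46304716-46304736, chr19:46305449-46305478 with the match on the opposite strand and chr19:46305695-46305724, plus strand, before 3 start sites) overlap exons, so short stretches around their matches are given. All are written 5′ to 3′ on the gene's strand, with the match in capitals.
Nfkbia: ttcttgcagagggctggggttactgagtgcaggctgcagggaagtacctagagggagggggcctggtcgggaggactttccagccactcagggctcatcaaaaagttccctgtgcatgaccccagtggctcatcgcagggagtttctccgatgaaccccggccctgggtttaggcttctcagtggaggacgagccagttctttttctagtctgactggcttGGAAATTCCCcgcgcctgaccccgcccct
Nfkbie: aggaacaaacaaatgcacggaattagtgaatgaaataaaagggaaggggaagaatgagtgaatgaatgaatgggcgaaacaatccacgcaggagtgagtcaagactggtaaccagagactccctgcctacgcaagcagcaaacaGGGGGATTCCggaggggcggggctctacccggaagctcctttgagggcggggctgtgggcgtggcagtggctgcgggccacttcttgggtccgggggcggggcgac
Rel: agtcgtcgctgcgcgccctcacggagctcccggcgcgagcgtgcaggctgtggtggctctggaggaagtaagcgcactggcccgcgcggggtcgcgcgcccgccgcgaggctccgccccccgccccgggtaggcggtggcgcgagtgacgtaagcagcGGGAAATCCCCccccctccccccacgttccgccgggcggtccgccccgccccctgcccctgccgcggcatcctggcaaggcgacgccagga
Tnfaip3, first stretch: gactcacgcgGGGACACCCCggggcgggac
Tnfaip3, second stretch: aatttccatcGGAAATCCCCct
Nfkb2, stretch 1: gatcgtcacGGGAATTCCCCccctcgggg
Nfkb2, stretch 2: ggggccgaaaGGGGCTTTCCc
Nfkb2, stretch 3: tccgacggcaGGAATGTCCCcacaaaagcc
Nfkb2, stretch 4: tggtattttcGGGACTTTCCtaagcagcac

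Nfkbia was at a uniform low level in HSC-like cells of vehicle mice and more than 10 times higher in most IL1b mice. In WT mice 1 to 4 it was 44.3, 61.9, 55.6 and 56.2 CPM with vehicle and 77.9, 1043, 1275 and 747 CPM with IL1b. Levels in Tet2-KO mice were 56.5, 62.0, 73.3 and 59.2 CPM with vehicle and 1237, 440.3, 1437 and 1039.7 CPM with IL1b. These levels rest on few cells in some mice: 64, 19, 191 and 160 HSC-like cells in WT mice with vehicle and 142, 16, 117 and 12 with IL1b, and 180, 33, 226 and 162 and then 26, 237, 96 and 145 in Tet2-KO mice. A minimum of 30 cells per mouse left too few mice for a test in HSC-like cells. The groups did not overlap, but WT IL1b mouse 1 was just above the highest vehicle mouse and Tet2-KO IL1b mouse 2 was the lowest of its group. In log2 units the fold change was 3.78 ± 0.51 (SE, n = 4 against 4 mice; edgeR adjusted p = 2.05e-05) in WT and 4.01 ± 0.46 (edgeR adjusted p = 1.34e-06) in Tet2-KO mice. It was 4.28 in WT mice without IL1b mouse 1 and 3.04 without IL1b mouse 3. With only mice 1 and 2 of each group, the WT calls of Nfkbia, Tnfaip3 and Nfkbiz in HSC-like cells and of Nfkbia in Mpo+ Cd34+ cells were lost. The Tet2-KO calls of Nfkbiz, Nfkb1, Rel, Traf1 and Birc3 in HSC-like cells were lost there as well.

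**Figure D2:**
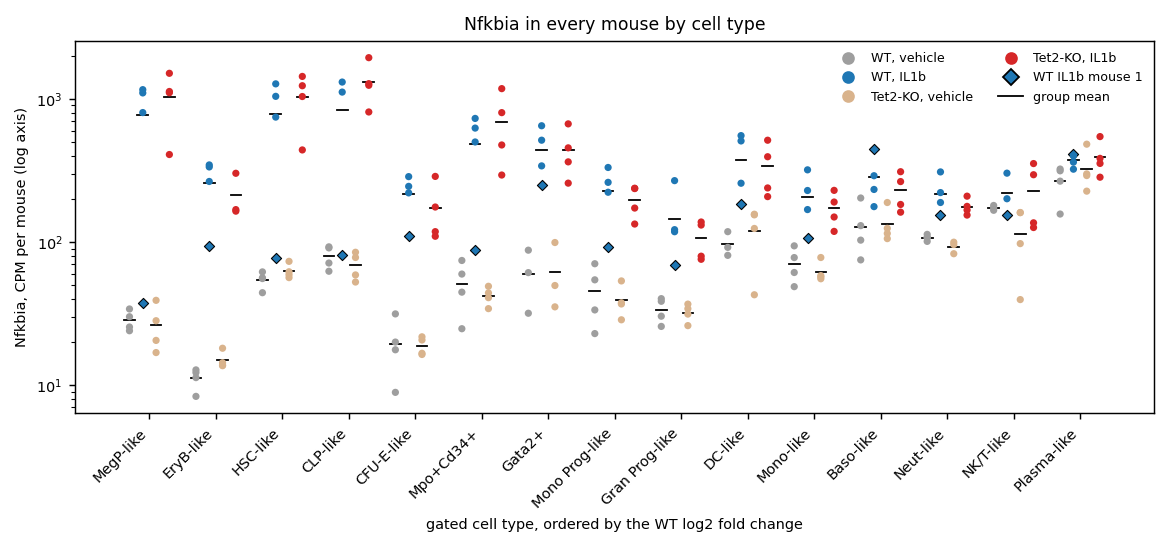
Nfkbia level (CPM, log scale) in each of the 15 tested cell types, 1 point per mouse, by genotype and treatment. In HSC-like, CLP-like and megakaryocyte progenitor-like cells the Tet2-KO IL1b mice lie at 409 CPM or more and the Tet2-KO vehicle mice at 84.9 CPM or less, while in plasma-like cells the groups overlap.

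The highest fold was in megakaryocyte progenitor-like cells. There Nfkbia was 25.5, 34.1, 24.01 and 30.1 CPM in WT mice with vehicle and 37.4, 1161, 1102 and 803 CPM with IL1b. For Tet2-KO the levels were 20.6, 16.9, 39.2 and 28.2 CPM with vehicle and 1105, 409, 1511 and 1128 CPM with IL1b. WT IL1b mouse 1 was again just above the vehicle mice, and the others of its group were far above them. On the log2 scale the fold change was 4.75 ± 0.72 (edgeR adjusted p = 0.0073) in WT and 5.34 ± 0.72 (edgeR adjusted p = 0.000881) in Tet2-KO mice. Without IL1b mouse 1 it was 5.14 in WT mice. The WT call was lost with pools as replicates, and both calls with only mice 1 and 2 of each group.

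CLP-like cells, the lymphoid-primed progenitors, gave a like picture with 1 mouse fewer. In WT mice Nfkbia was 92.6, 91.0, 71.4 and 62.6 CPM with vehicle and 81.2, 1312 and 1117 CPM with IL1b in mice 1, 3 and 4. Among Tet2-KO mice they were 52.6, 78.0, 84.9 and 58.9 CPM with vehicle and 1246, 811, 1943 and 1279 CPM with IL1b. WT IL1b mouse 1 lay within the vehicle range, and all other IL1b mice were above it. The log2 fold change was 3.44 ± 0.47 (edgeR adjusted p = 6.09e-05) in WT mice, 4.00 without IL1b mouse 1 and 2.85 without IL1b mouse 3, and it was 4.25 ± 0.46 (edgeR adjusted p = 2.39e-06) in Tet2-KO mice. In Mpo+ Cd34+ progenitors the WT values with IL1b were 88.6, 731, 500.4 and 626 CPM over a vehicle range of 24.8 to 74.4, and the Tet2-KO values were 1180.4, 294, 802 and 477 CPM over 34.3 to 49.1. In log2 units the fold change there was 3.33 in WT (3.75 without IL1b mouse 1) and 3.98 in Tet2-KO mice.

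Erythroid cells started from the lowest levels. In EryB-like erythroblasts, Nfkbia was 12.3, 8.36, 12.8 and 11.3 CPM in WT mice with vehicle and 93.5, 335, 265 and 346 CPM with IL1b. Tet2-KO mice gave 18.1, 13.8, 13.7 and 14.4 CPM with vehicle and 165, 302 and 169 CPM in IL1b mice 2, 3 and 4, since mouse 1 had too few of these cells. No IL1b mouse came near the vehicle mice, WT mouse 1 included. On the log2 scale the fold change was 4.39 ± 0.34 (edgeR adjusted p = 5.59e-09) in WT and 3.82 ± 0.33 (edgeR adjusted p = 4.27e-08) in Tet2-KO mice, and in CFU-E-like cells, the stage before, it was 3.38 and 3.23.

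Granulocyte progenitor-like cells were the most numerous gated cells. Nfkbia was 40.3, 38.6, 30.4 and 25.8 CPM in WT mice with vehicle and 69.0, 269, 118 and 122 CPM with IL1b. The Tet2-KO mice had 34.3, 26.1, 36.9 and 31.4 CPM with vehicle and 138, 79.7, 132 and 75.8 CPM with IL1b. The groups did not overlap in either genotype. The log2 fold change was 2.14 in WT and 1.71 in Tet2-KO mice. It was 2.56 and 2.27 in monocyte-primed progenitor-like cells and 2.78 and 2.90 in Gata2+ progenitors.

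In neutrophil-like, monocyte-like, DC-like and basophil-like cells the log2 fold changes of Nfkbia lay between 0.75 and 1.71. In neutrophil-like cells, Nfkbia was 101, 107, 113 and 108 CPM in WT mice with vehicle and 154, 222, 189 and 309 CPM with IL1b (log2 fold change 0.97, edgeR adjusted p = 0.0197). Levels in Tet2-KO mice were 96.1, 82.9 and 99.8 CPM with vehicle in mice 1 to 3 and 178, 209, 154 and 168 CPM with IL1b (0.92, edgeR adjusted p = 0.0422). The groups did not overlap. The Tet2-KO call was lost without any of 10 of the 16 mice, with an adjusted p of up to 0.198, and the WT call without vehicle mouse 1 (0.0938) or vehicle mouse 2 (0.061). Both calls were lost with pools as replicates. Monocyte-like cells gave log2 fold changes of 1.47 in WT and 1.45 in Tet2-KO mice, both called. DC-like cells (class II dendritic cells) gave 1.71 (edgeR adjusted p = 0.0248) and 1.44 (0.054), and basophil-like cells 1.08 (0.0182) and 0.75 (0.0881). The WT call in DC-like cells was lost without IL1b mouse 3 or 4 or vehicle mouse 1, 3 or 4, and that in basophil-like cells without IL1b mouse 1, vehicle mouse 3 or vehicle mouse 4. Both were lost with pools as replicates, and the call in basophil-like cells also with at least 30 cells per mouse and with only mice 1 and 2.

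Plasma-like and NK/T-like cells had no call. In plasma-like cells, which had the highest vehicle level of Nfkbia, it was 324, 157, 315 and 267 CPM in WT mice with vehicle and 413, 401, 362 and 323 CPM with IL1b. For Tet2-KO the levels were 299, 227, 292 and 483 CPM with vehicle and 384, 546, 284 and 354 CPM with IL1b. The groups overlapped, and the log2 fold change was 0.39 ± 0.23 (edgeR adjusted p = 0.414) in WT and 0.28 ± 0.23 (0.592) in Tet2-KO mice. NK/T-like cells gave 0.42 (edgeR adjusted p = 0.68) and 1.08 (0.112).

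Counted in cells thinned to 1500 UMIs each, the change in Nfkbia lay in the share of cells with a UMI as well as in the sums. In HSC-like cells the share was 3.39% to 10.2% over WT vehicle mice and 10.9% to 81.3% over WT IL1b mice, with a median of 71.9%. Among Tet2-KO mice they were 3.13% to 9.36% with vehicle and 36.0% to 86.0% with IL1b. The lowest of the WT IL1b shares is that of mouse 1, and in the other WT IL1b mice most HSC-like cells held the transcript even at this shallow depth. In granulocyte progenitor-like cells the shares were 4.08% to 5.16% and 10.9% to 27.5% in WT mice, and 3.55% to 4.94% and 8.78% to 16.1% in Tet2-KO mice. In plasma-like cells they overlapped, with 18.2% to 35.9% and 35.8% to 45.5% in WT mice. Without thinning, the HSC-like shares were 10.9% to 15.8% and 20.4% to 93.8% in WT mice and 12.3% to 18.2% and 57.4% to 92.3% in Tet2-KO mice. Thinning left out 12 and 21 WT cells and 28 and 9 Tet2-KO cells with fewer UMIs.

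**Figure D3:**
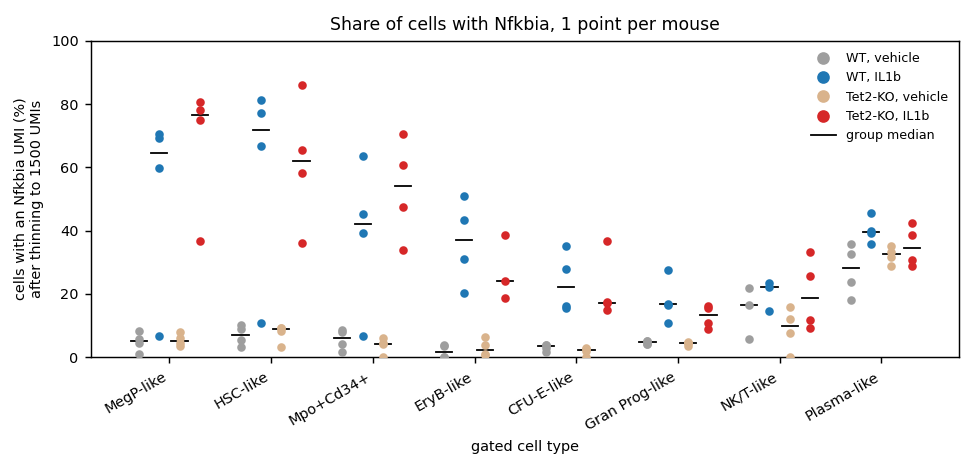
Share of cells with at least 1 Nfkbia UMI after thinning each cell to 1500 UMIs (percent), 1 point per mouse, by cell type, genotype and treatment. In HSC-like cells the vehicle mice lie at 3.13% to 10.2%. The medians over all IL1b mice are 71.9% in WT, with mouse 1 at 10.9%, and 61.9% in Tet2-KO.

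Tnfaip3 (ENSMUSG00000019850, chr10:19000910-19015657, minus strand) encodes A20, a ubiquitin-editing enzyme that shuts off signalling upstream of the IkB kinase. It rose in 12 of 15 types in WT and in 10 of 15 in Tet2-KO mice. Its level with vehicle depended on the type, with group means of 1.40 CPM (WT) and 2.68 CPM (Tet2-KO) in EryB-like cells and of 75.0 and 97.4 CPM in basophil-like cells. In HSC-like cells of WT mice it was 5.54, 0, 5.21 and 5.62 CPM with vehicle and 49.2, 232, 357 and 256 CPM with IL1b. Tet2-KO mice gave 16.7, 0, 11.6 and 9.47 CPM with vehicle and 468, 149, 447 and 294 CPM with IL1b. The groups did not overlap, and WT IL1b mouse 1 was the lowest IL1b mouse. In log2 units the fold change was 5.16 ± 0.69 (edgeR adjusted p = 2.05e-05) in WT mice, where it was 5.80 without IL1b mouse 1 and 4.10 without IL1b mouse 3, and 4.70 ± 0.50 (edgeR adjusted p = 4.32e-07) in Tet2-KO mice. A value of 0 allows for up to 3 UMIs, which in HSC-like cells was 3.46 to 70.2 CPM depending on the mouse.

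The same gene in Mpo+ Cd34+ progenitors was 11.2, 9.30, 9.93 and 1.65 CPM in WT mice with vehicle and 51.8, 189.5, 159 and 115 CPM with IL1b. In Tet2-KO mice Tnfaip3 was 12.6, 0, 3.41 and 4.53 CPM with vehicle and 311, 98.5, 284 and 151 CPM with IL1b. Every IL1b mouse was above every vehicle mouse, with log2 fold changes of 3.96 (4.35 without WT IL1b mouse 1) and 4.96, the latter 5.54 without Tet2-KO vehicle mouse 1. In granulocyte progenitor-like cells Tnfaip3 was 1.41 to 4.98 CPM with vehicle and 20.1 to 60.1 with IL1b in WT mice, and 2.38 to 5.19 and 15.9 to 35.7 in Tet2-KO mice. On the log2 scale the fold change there was 3.69 and 2.72.

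Nfkbiz (ENSMUSG00000035356, chr16:55811375-55838899, minus strand) encodes IkBζ, a nuclear IkB that acts on secondary response genes. It rose in 9 of the 14 types in which it was tested, in each genotype. In HSC-like cells it was 99.7, 41.3, 50.4 and 29.99 CPM in WT mice with vehicle and 119, 811, 644 and 405 CPM with IL1b. The Tet2-KO mice had 217, 77.5, 50.2 and 30.8 CPM with vehicle and 677, 276, 975 and 530.3 CPM with IL1b. The groups did not overlap, although Tet2-KO vehicle mouse 1 stood well above the other vehicle mice. The log2 fold change was 3.12 (edgeR adjusted p = 0.000389) in WT mice, 3.62 without IL1b mouse 1, and 2.61 (edgeR adjusted p = 0.000234) in Tet2-KO mice, 3.65 without vehicle mouse 1.

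In CLP-like cells Nfkbiz was 44.7, 15.2, 49.1 and 25.4 CPM in WT mice with vehicle and 99.9, 841 and 715 CPM in WT IL1b mice 1, 3 and 4. Levels in Tet2-KO mice were 81.5, 52.0, 43.6 and 39.3 CPM with vehicle and 1170.2, 409, 1547 and 515 CPM with IL1b. The log2 fold changes were 3.80 (4.32 without WT IL1b mouse 1) and 3.96, with no overlap. In monocyte-primed progenitor-like cells it was 4.87 to 21.2 CPM with vehicle and 44.0 to 105 with IL1b in WT mice (log2 fold change 2.84, edgeR adjusted p = 0.000206). In Tet2-KO mice the groups overlapped there, with 36.8, 19.9, 5.02 and 8.42 CPM with vehicle and 72.4, 57.2, 60.6 and 29.5 CPM with IL1b. In log2 units the fold change was 1.56 (edgeR adjusted p = 0.00377), and 2.38 without Tet2-KO vehicle mouse 1.

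Nfkbie (ENSMUSG00000023947, chr17:45555703-45563169, plus strand) encodes IkBe, a further cytoplasmic inhibitor. It passed the filter in 6 types and was called in 0 of them in WT and in 3 in Tet2-KO mice. In HSC-like cells it was 5.54, 0, 15.6 and 20.6 CPM in WT mice with vehicle and 10.3, 232, 48.3 and 42.7 CPM with IL1b (log2 fold change 1.46, edgeR adjusted p = 0.194). For Tet2-KO the levels were 4.18, 0, 7.72 and 9.47 CPM with vehicle and 50.2, 22.1, 55.9 and 39.8 CPM with IL1b (2.44, edgeR adjusted p = 0.0103). The Tet2-KO groups did not overlap, while WT IL1b mouse 1 fell inside the WT vehicle range and without it the WT log2 fold change was 2.31 (edgeR adjusted p = 0.00985). The difference between the genotypes was not called. In Mpo+ Cd34+ progenitors the log2 fold change was 1.85 (edgeR adjusted p = 0.0649) in WT, 2.18 (0.0381) without IL1b mouse 1, and 2.72 (0.00296) in Tet2-KO mice, where the call was lost with DESeq2.

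**Figure D4:**
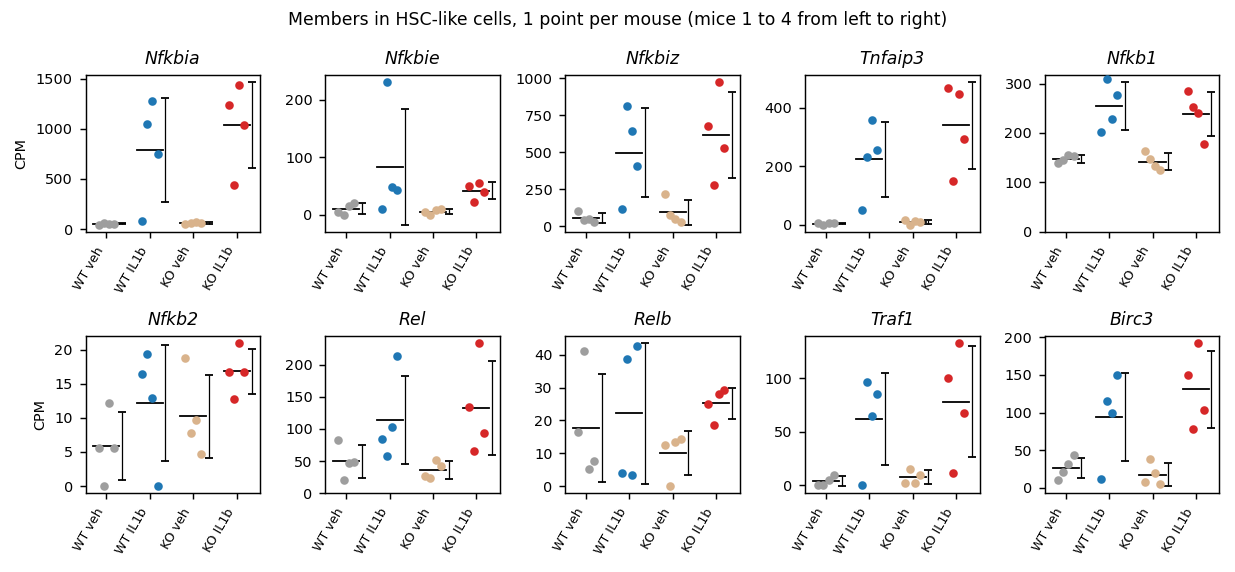
Level (CPM) of each of the 10 genes in HSC-like cells, 1 panel per gene; points are mice 1 to 4 from left to right in each group, bars the mean and error bars the SD. For Nfkbia, Nfkbiz, Traf1 and Birc3, WT IL1b mouse 1 is near the vehicle mice and the others of its group are above them.

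The subunits bind DNA as dimers. Nfkb1 (ENSMUSG00000028163, chr3:135584655-135691547, minus strand), which encodes p105 and its product p50, rose in 5 of 15 types in WT and in 8 of 15 in Tet2-KO mice, by small amounts. In HSC-like cells it was 138, 144, 155 and 154 CPM in WT mice with vehicle and 203, 309, 229 and 277 CPM with IL1b. Among Tet2-KO mice they were 163, 147, 133 and 126 CPM with vehicle and 284, 253, 241 and 178 CPM with IL1b. The groups did not overlap and WT IL1b mouse 1 was above its controls here. On the log2 scale the fold change was 0.63 (edgeR adjusted p = 0.048) in WT and 0.72 (0.00325) in Tet2-KO mice. It was 0.74 in WT mice without IL1b mouse 1. The WT call was lost without any of 12 of the 16 mice, at an adjusted p of up to 0.17, and with DESeq2, pools as replicates, the replicate block, the hashtag ratio rule, no filter on low counts and only mice 1 and 2 or only mice 3 and 4.

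In granulocyte progenitor-like cells, with more cells behind each value, Nfkb1 was 74.9, 66.0, 83.1 and 82.9 CPM in WT mice with vehicle and 105, 112, 137 and 120.3 CPM with IL1b. Tet2-KO mice gave 80.2, 89.2, 72.9 and 66.8 CPM with vehicle and 126, 126, 109 and 108 CPM with IL1b. The groups were separate in both genotypes, with log2 fold changes of 0.60 ± 0.11 (edgeR adjusted p = 0.000567) and 0.60 ± 0.10 (0.000159). In Mpo+ Cd34+ progenitors the log2 fold change was 0.71 (edgeR adjusted p = 0.0114; 0.80 without WT IL1b mouse 1) and 0.59 (0.021). There the WT call was lost without IL1b mouse 3 (0.0741), and the Tet2-KO call without IL1b mouse 1 (0.0658), IL1b mouse 2 (0.0684), vehicle mouse 3 (0.0826) or vehicle mouse 4 (0.0774). Both were lost with pools as replicates and with only mice 1 and 2. The WT call was also lost under the hashtag ratio rule, and the Tet2-KO call with at least 30 cells per mouse and with only mice 3 and 4.

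Rel (ENSMUSG00000020275, chr11:23736847-23770970, minus strand), which encodes c-Rel, a subunit with a transactivation domain, was called in 3 of 13 types in WT and in 7 of 13 in Tet2-KO mice. In HSC-like cells it was 83.0, 20.6, 46.9 and 48.7 CPM in WT mice with vehicle and 84.0, 57.9, 103 and 213 CPM with IL1b (log2 fold change 0.91, edgeR adjusted p = 0.179; 1.09, 0.16, without IL1b mouse 1). The Tet2-KO mice had 27.2, 23.3, 52.1 and 42.6 CPM with vehicle and 134, 66.4, 234 and 94.3 CPM with IL1b (1.60, edgeR adjusted p = 0.00154). The WT groups overlapped through vehicle mouse 1 and IL1b mouse 2, and the Tet2-KO groups did not. In granulocyte progenitor-like cells Rel ran from 19.1 to 25.8 CPM and from 29.1 to 36.5 CPM in WT mice, and from 17.6 to 23.3 and from 30.9 to 37.3 in Tet2-KO mice. The log2 fold change there was 0.51 (edgeR adjusted p = 0.00413) and 0.65 (0.000144), and the WT call was lost with pools as replicates and under the hashtag ratio rule.

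Nfkb2 and Relb, whose products p52 and RelB form the dimer of the non-canonical pathway, were scarce. Nfkb2 (ENSMUSG00000025225, chr19:46304320-46312385, plus strand) passed the filter in 5 types and was called only in EryB-like cells of WT mice. It was 2.67, 0, 1.97 and 2.51 CPM there with vehicle and 9.45, 13.9, 8.14 and 9.35 CPM with IL1b (log2 fold change 2.01, edgeR adjusted p = 0.00541). The call was lost with DESeq2 and with only mice 3 and 4 of each group. Levels in Tet2-KO mice were 7.09, 2.76, 3.16 and 3.87 CPM with vehicle and 4.77, 8.90 and 8.08 CPM with IL1b, so these groups overlapped (0.72, edgeR adjusted p = 0.317), and the difference between the genotypes was not called (edgeR adjusted p = 0.805).

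Relb (ENSMUSG00000002983, chr7:19606217-19629438, minus strand) passed in 6 types and was called in 2 in WT and in 3 in Tet2-KO mice. In CFU-E-like cells it was 2.69, 1.77, 1.62 and 0.622 CPM in WT mice with vehicle and 6.20, 14.2, 4.53 and 5.65 CPM with IL1b (log2 fold change 2.05, edgeR adjusted p = 0.00445; 2.76 without vehicle mouse 1). For Tet2-KO the levels were 1.41, 0, 1.00 and 2.22 CPM with vehicle and 4.57, 5.60, 4.33 and 2.62 CPM with IL1b (1.45, edgeR adjusted p = 0.0458). No IL1b mouse fell among the vehicle mice, yet the Tet2-KO call was lost without any of 10 of the 16 mice, at an adjusted p of up to 0.195. The calls of both genotypes were lost with DESeq2, and the Tet2-KO call also with pools as replicates, with at least 30 cells per mouse, under the hashtag ratio rule and with only mice 1 and 2 or only mice 3 and 4. In megakaryocyte progenitor-like cells of Tet2-KO mice, 70 UMIs of Relb with IL1b stood against 1 with vehicle, a ratio of 72.4 with a 95% counting interval of 12.6 to 2901 (edgeR adjusted p = 0.0111). In WT mice there were 23 against 2 UMIs (edgeR adjusted p = 0.183, and 0.0552 without IL1b mouse 1).

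Traf1 and Birc3 act between receptor and kinase and are well-known NF-kB target genes. Traf1 (ENSMUSG00000026875, chr2:34941750-34961772, minus strand), an adaptor of TNF receptor complexes, passed in 6 types and was called in 1 in WT and in 4 in Tet2-KO mice. In Mpo+ Cd34+ progenitors it was 0, 0, 0 and 1.65 CPM in WT mice with vehicle and 0, 40.6, 16.7 and 26.4 CPM with IL1b. That is 21 UMIs against 1, a ratio of 26.4 with a 95% counting interval of 4.25 to 1092 (edgeR adjusted p = 0.0491), a call lost without any of 10 of the 16 mice (adjusted p up to 0.151) and with DESeq2, and reached at 0.00837 without IL1b mouse 1. Among Tet2-KO mice they were 1.80, 0, 0 and 1.13 CPM with vehicle and 128, 5.55, 40.1 and 12.2 CPM with IL1b, 36 UMIs against 2, a ratio of 28.9 with an interval of 7.45 to 248 (edgeR adjusted p = 0.00471), a call also lost with DESeq2. Its log2 fold change was 4.65, with 3.84 without IL1b mouse 1 and 5.33 without IL1b mouse 2. The Tet2-KO groups did not overlap, while WT IL1b mouse 1 had no UMI, like 3 of its controls.

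In HSC-like cells Traf1 was 0, 0, 5.21 and 9.37 CPM in WT mice with vehicle and 0, 96.6, 64.4 and 85.4 CPM with IL1b (log2 fold change 2.51, edgeR adjusted p = 0.159). Without IL1b mouse 1 it was 3.53 (edgeR adjusted p = 0.00627). Tet2-KO mice gave 2.09, 15.5, 1.93 and 9.47 CPM with vehicle and 100.3, 11.7, 133 and 67.1 CPM with IL1b (3.49, edgeR adjusted p = 0.00337; 4.09 without IL1b mouse 2). Tet2-KO IL1b mouse 2 fell among the vehicle mice and the other IL1b mice of that genotype were above them. Megakaryocyte progenitor-like cells of Tet2-KO mice held 81 Traf1 UMIs against 3, a ratio of 27.9 with an interval of 9.22 to 138 (edgeR adjusted p = 0.0187). This call was lost without IL1b mouse 1, 3 or 4 or vehicle mouse 3.

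Birc3 (ENSMUSG00000032000, chr9:7848699-7873186, minus strand), which encodes the ubiquitin ligase cIAP2, was called in 5 of 13 types in WT and in 7 of 13 in Tet2-KO mice. In HSC-like cells it was 11.1, 20.6, 31.3 and 43.1 CPM in WT mice with vehicle and 12.3, 116, 99.8 and 149 CPM with IL1b (log2 fold change 0.92, edgeR adjusted p = 0.367). The Tet2-KO mice had 8.36, 38.8, 19.3 and 4.74 CPM with vehicle and 150.4, 78.0, 192 and 103 CPM with IL1b (3.08, edgeR adjusted p = 0.000101). WT IL1b mouse 1 lay among the vehicle mice, and without it the WT value was 1.75 (edgeR adjusted p = 0.0109). In Mpo+ Cd34+ progenitors Birc3 was 8.27 to 18.6 CPM with vehicle and 33.4 to 115 with IL1b in WT mice, and 5.66 to 21.1 and 34.7 to 104 in Tet2-KO mice. The log2 fold changes there were 2.28 (edgeR adjusted p = 0.000551; 2.63 without WT IL1b mouse 1) and 2.19 (0.000567).

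The number of calls is given by cell type without a test between types, since 4 to 9 of the genes passed the filter in each. With Tet2-KO, 8 of the genes were called in each of HSC-like, megakaryocyte progenitor-like and Mpo+ Cd34+ cells and 7 in CLP-like cells, where 4.72%, 2.42%, 5.85% and 2.62% of all tested genes were called higher. The WT counts were 4, 3, 7 and 3, against 1.56%, 1.89%, 3.72% and 2.01%. Granulocyte progenitor-like cells had 6 calls in each genotype against a higher background of 12.2% in WT and 18.7% in Tet2-KO mice, and monocyte-primed progenitor-like cells had 6 and 7 against 6.16% and 9.27%. Gata2+ progenitors had 3 and 6 (0.584% and 2.11%), CFU-E-like cells 6 and 6 (7.29% and 5.73%) and EryB-like cells 5 and 3 (4.38% and 3.93%).

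Among the more mature cells, monocyte-like cells had 3 in WT and 2 in Tet2-KO mice (0.955% and 0.888%), neutrophil-like cells 2 and 1 (0.463% and 0.399%), DC-like cells 2 and 0 (0.323% and 0.388%) and basophil-like cells 1 and 0 (1.66% and 2.6%). Plasma-like cells had 0 and 0 (0.809% and 0.774%), with 1 pair in each genotype at an unadjusted p under 0.05 by edgeR. NK/T-like cells had 0 and 0 as well (0.59% and 0.966%), again with 1 such pair in each genotype.

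Whether Tet2 loss altered the response was tested as the difference of the IL1b effects. It was called for 0 of the 108 pairs (3 at an unadjusted p under 0.05 by edgeR, and 0 called and 0 at that level by DESeq2), where 0.00901% of all pairs were called in either direction. The genes with the largest median difference over their types were Traf1 (0.85, higher in Tet2-KO in 5 of 6 types), Nfkbiz (-0.79, higher in 1 of 14) and Tnfaip3 (-0.55, higher in 2 of 15). The Traf1 difference was 0.97 in HSC-like, 0.42 in Mpo+ Cd34+, 0.80 in CLP-like, 1.90 in megakaryocyte progenitor-like and 0.89 in NK/T-like cells. Without WT IL1b mouse 1 these values were -0.06, -0.29, 0.21, 1.11 and 0.78. For Nfkbiz, Tet2-KO vehicle mouse 1 lowered the Tet2-KO change. Without that mouse it was 3.65 in HSC-like cells, above the WT value given earlier. In monocyte-primed progenitor-like cells it was 2.38, still below the WT value. The counts over types reuse the same mice and are not independent. The standard errors were wide, with a median over types of 1.60 for Traf1, 0.75 for Nfkbiz and 0.88 for Tnfaip3, and of 0.25 for Nfkb1, so differences of that size could not be told from 0. The 3 pairs under an unadjusted 0.05 were Birc3 in HSC-like cells (2.16 ± 0.74, and 1.31 ± 0.59 without WT IL1b mouse 1) and Nfkbiz in neutrophil-like (-1.50 ± 0.70) and monocyte-primed progenitor-like cells (-1.28 ± 0.61), and none was called after adjustment. Without the filter on low counts, all 3 were called, at nearly the same log2 changes. The SEs were then 0.48, 0.34 and 0.27 in place of 0.74, 0.70 and 0.61.

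Between the genotypes under the same treatment, 0 pairs were called. Without the filter on low counts, 3 were called with vehicle and 4 with IL1b. The following counts are with the filter. With vehicle, 3 were at an unadjusted p under 0.05 by edgeR and 1 by DESeq2, where 0.037% of all pairs were called. The largest medians were for Nfkbiz (0.59, higher in Tet2-KO in 12 of 14 types), Nfkbie (-0.42) and Tnfaip3 (0.40). In HSC-like cells, Tet2-KO vehicle mice 1 to 4 had 104, 10, 26 and 13 Nfkbiz UMIs among 515214, 139881, 571396 and 465539. The medians include mouse 1, which was the highest of its group there. With IL1b, 10 were at an unadjusted p under 0.05 by edgeR and 3 by DESeq2, where 0.0791% of all pairs were called, and the largest medians were for Traf1 (0.85), Nfkb2 (-0.34) and Tnfaip3 (-0.20). These medians include WT IL1b mouse 1, which had no Traf1 UMI in HSC-like or Mpo+ Cd34+ cells.

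Genes of the pathway outside these 10 moved unevenly. Of 26 genes upstream of NF-kB (receptors, adaptors and kinases), tested in 220 pairs, 19 pairs were higher and 1 lower in WT mice and 22 and 0 in Tet2-KO mice, with median log2 fold changes of 0.30 and 0.30. The background for this and the following lists is that of all tested pairs, of which 3.84% were higher and 5.77% lower in WT and 5.25% and 6.96% in Tet2-KO mice. Tab2, an adaptor of the kinase TAK1, accounted for 6 and 8 of the higher pairs, with 0.57 (edgeR adjusted p = 0.00156) and 0.53 (0.000864) in granulocyte progenitor-like cells. Il1r1, the IL1 receptor, passed the filter only in granulocyte progenitor-like cells and was not called there (0.60, edgeR adjusted p = 0.554, and 0.89, 0.271).

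Of 15 other subunits and inhibitors, tested in 151 pairs, 22 were higher and 7 lower in WT mice and 26 and 10 in Tet2-KO mice (median log2 fold changes 0.17 and 0.18). Tnip3, a binding partner of A20, rose in 6 of 7 types in WT and in 7 of 7 in Tet2-KO mice, with 2.86 (edgeR adjusted p = 0.00187) and 3.30 (0.000133) in HSC-like cells. Zc3h12a, which encodes the RNase Regnase-1, rose in 5 and 7 of 9 types, and Nfkbid, a nuclear IkB, in 4 and 5 of 12. Rela, the p65 partner of p50, rose in 2 and 1 of 13 types, and in granulocyte progenitor-like cells by 0.47 (edgeR adjusted p = 0.0028) and 0.32 (0.00935). Commd1, which promotes the breakdown of RelA, was lower in 7 of 13 types in each genotype.

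Of 30 NF-kB target genes, 22 were tested, in 209 pairs, of which 66 were higher and 4 lower in WT and 60 and 4 in Tet2-KO mice, with median log2 fold changes of 1.09 and 0.56. Cd69, an early activation antigen, rose in 10 and 8 of 15 types, with 3.81 (edgeR adjusted p = 2.05e-05) and 3.80 (8.71e-06) in HSC-like cells. Ier3 rose in 9 of 12 types in each genotype, Junb in 7 and 6 of 15 and Cxcl10, an interferon- and NF-kB-induced chemokine, in 5 of 7 in each. Tnf rose in 9 and 6 of 12 types, and in HSC-like cells it had 72 UMIs with IL1b and 3 with vehicle in WT and 191 and 2 in Tet2-KO mice. Cxcl2, a neutrophil-attracting chemokine, rose in 8 and 5 of 12 types.

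Immediate early genes, which rise while tissue is handled and also answer to cytokines, moved with some of these results. Of 18 such genes (Junb and Ier3 among them), tested in 255 pairs, 32 rose and 3 fell in WT, while 21 rose and 6 fell in Tet2-KO mice. Their summed level in HSC-like cells was 3642 to 6859 CPM with vehicle and 7255 to 12003 with IL1b in WT mice, without overlap, and 5280 to 17647 and 10378 to 16077 in Tet2-KO mice, with overlap. In granulocyte progenitor-like cells the groups overlapped in WT mice, at 2152 to 2772 and 2027 to 3178 CPM, while Nfkbia did not. In plasma-like cells the sum ran from 4705 to 9275 and from 4782 to 13935 CPM in WT mice, over which Nfkbia was not called. The sums also followed the pools: in plasma-like cells the median of mice 1 and 2 of all groups was 9848 CPM and that of mice 3 and 4 was 4929. Basophil-like cells of WT IL1b mouse 1 had the highest sum of that type (19359 CPM), and the highest Tnfaip3 and Nfkbiz levels of their group. The part of the immediate early genes in the results was not tested.

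**Figure D5:**
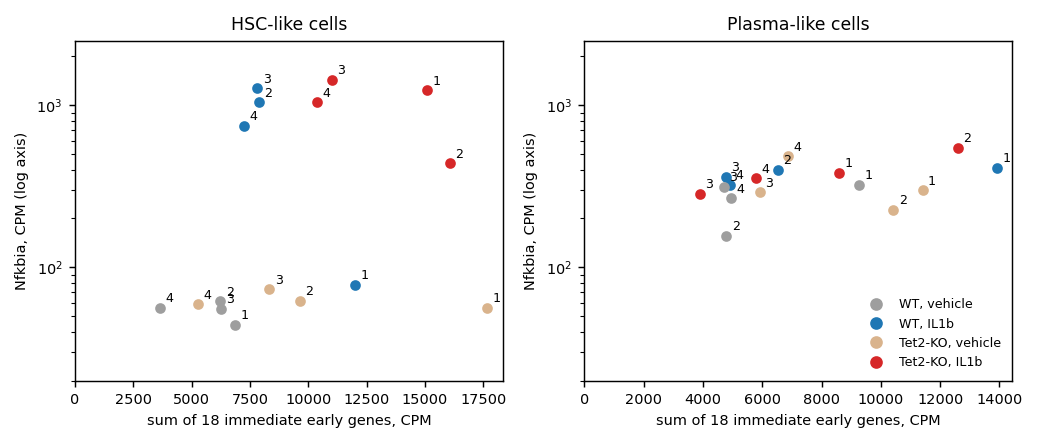
Summed level of 18 immediate early genes (CPM, horizontal) against Nfkbia (CPM, vertical) in HSC-like and in plasma-like cells, 1 point per mouse, by group. In HSC-like cells Tet2-KO vehicle mouse 1, with the highest sum (17647 CPM), has an Nfkbia level of 56.5 CPM, within the range of the other vehicle mice. Nfkbiz and Tnfaip3, not drawn here, were highest in that mouse among the Tet2-KO vehicle mice in HSC-like cells.

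Over the 60 means of 15 types and 4 groups, which share libraries and depth, the level of Nfkbia was most like that of Tnfaip3 among 1540 genes (Pearson r = 0.90). Outside the 10 genes, the most like were Junb (r = 0.86), Kdm2a (0.76), Cd69 (0.74), Rsrp1 (0.74) and Gm42418 (0.73), and Nfkb1 stood 51st (0.53).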

How the data were processed

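Single-cell RNA and hashtag libraries (8 of each, 10x Genomics 3′ chemistry) were used as UMI counts per gene and barcode, which the authors deposited without normalization. Per the submitters' processing notes, the counts came from Cell Ranger 3.1.0 on mm10, with Seurat 3.2.3 for the analysis. The 10 genes and all lists were chosen with earlier results of these data known, and the marker gates were set after the files had been opened. Every one of the 10 genes is named in each comparison in which it was called in any type, otherwise the 3 with the largest median. From the lists, at most 6 called genes are named.

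Barcodes with under 750 genes or over 10% mitochondrial UMIs were removed. HTODemux (Seurat 5.3.0) assigned cells to mice. Its 3938 double positives were left out as doublets, with no other doublet removal, and its 33083 negatives were left out of the main tests. Pools as replicates took in the negatives, and the hashtag ratio rule assigned cells without regard to the HTODemux class. UMIs were summed per mouse and cell type, with at least 10 cells per mouse and 3 mice per group, and tested with edgeR 4.0.16 (R 4.3.3; filterByExpr, TMM, quasi-likelihood, all 4 groups in 1 fit). An adjusted p under 0.05 was a call. Standard errors (SE) were derived as the absolute log2 fold change over the square root of the quasi-likelihood F statistic. They are imprecise where the change is near 0. Intervals cover counting error only, and p-values the spread between mice. On simulated data for HSC-like cells, the test recovered 60% (WT) and 65% (Tet2-KO) of genes changed by log2 1, and 99% and 100% of those changed by 2. Of the genes called, 4.76% and 4.41% were false at log2 1, and 5.26% and 8.26% at log2 2. Alternatives were DESeq2 1.42.0, RLE scaling, no filter, a replicate block, at least 30 cells, a hashtag ratio rule, clusters in place of gates, pools as replicates and leaving out each mouse. Whether mice with the same number deviate together was checked. The age of the mice is given as in the labels.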

Additional observations from a re-analysis of the deposited data

Results flagged for a closer look

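In 107 groups of 4 mice behind the values above, 7 held a mouse far from the other 3 by Dixon's criterion, and chance gives about 1 in 20. Of these, 4 rest on 0 to 2 UMIs: Tnfaip3 in HSC-like cells was 0 CPM in WT vehicle mouse 2 and 5.21 to 5.62 in the others, Relb in megakaryocyte progenitor-like cells was 2.40 CPM in WT vehicle mouse 3 and 1.14 in Tet2-KO vehicle mouse 1 with 0 in the others, and Traf1 in Mpo+ Cd34+ progenitors was 1.65 CPM in WT vehicle mouse 4 with 0 in the others. Nfkbia in EryB-like cells was 18.1 CPM in Tet2-KO vehicle mouse 1 and 13.7 to 14.4 in the others. Nfkbie in Mpo+ Cd34+ progenitors was 81.2 CPM in WT IL1b mouse 2 (18 UMIs) and 8.81 to 15.05 in the others. Relb in megakaryocyte progenitor-like cells was 6.91 CPM in Tet2-KO IL1b mouse 2 and 27.7 to 30.9 in the others, the same mouse that had the lowest Nfkbia of its group in these cells and in HSC-like cells. Under the hashtag ratio rule this mouse had 464 CPM of Nfkbia in 14 megakaryocyte progenitor-like cells, again the lowest of its group, and 1028 CPM in 3 HSC-like cells, above mouse 4 (936 CPM).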

How the results depend on the processing

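No called pair changed sign under any alternative in which it was tested. The count of called pairs in WT and Tet2-KO mice was 45 and 50 with DESeq2, 52 and 62 with RLE scaling, 68 and 72 without the filter on low counts, 41 and 44 with at least 30 cells per mouse, 50 and 55 under the hashtag ratio rule, 64 and 66 with clusters in place of gates and 55 and 66 with pools as replicates. With at least 30 cells, under the ratio rule and with clusters, only 81, 83 and 88 of the 108 pairs were tested as well, so 9, 7 and 13 of the calls in WT and 15, 8 and 16 in Tet2-KO mice had no test there and these counts are not over the same pairs. Clusters, pools and no filter also added pairs that had not been tested. Pools as replicates also took in cells without a hashtag call, and the ratio rule could assign such cells, so the set of cells changed as well. Of the calls in WT mice, pools as replicates lost 12 (Nfkbia in megakaryocyte progenitor-like, DC-like, basophil-like and neutrophil-like cells, Tnfaip3 in megakaryocyte progenitor-like and DC-like cells, Nfkbiz in megakaryocyte progenitor-like cells, and 5 of Nfkb1 or Rel) and gained 8, and in Tet2-KO mice they lost 8 and gained 4. DESeq2 lost 10 and 13 and gained 4 and 1. Clusters lost 1 and 4 and gained 13 and 10 among the pairs tested both ways. Leaving out 1 mouse gave 42 to 59 and 45 to 63, and 0 to 0 for the difference of the effects and for both comparisons of the genotypes. Chosen after seeing the data, mice 1 and 2 only gave 21 and 19 calls, and mice 3 and 4 only 52 and 57. Of the main calls, 13 and 17 had no test with mice 1 and 2 only, and 3 and 2 with mice 3 and 4 only. Nfkbia in plasma-like cells of Tet2-KO mice, which was not called, had a log2 fold change of -0.20 with mice 3 and 4 only. Without the filter on low counts, the difference of the IL1b effects was called for 4 pairs: Birc3 in HSC-like cells (2.16; with the filter, 1.31 without WT IL1b mouse 1) higher, and Tnfaip3 in basophil-like cells (-1.37), Nfkbiz in monocyte-primed progenitor-like cells (-1.27) and Nfkbiz in neutrophil-like cells (-1.50) lower in Tet2-KO. With the filter and without that mouse, Tnfaip3 in basophil-like cells was 0.18. Nfkbiz was then -1.50 in monocyte-primed progenitor-like and -1.09 in neutrophil-like cells. Without the filter, Tet2-KO against WT was called for 3 pairs with vehicle (Nfkbiz in HSC-like, monocyte-primed progenitor-like and neutrophil-like cells, higher) and for 4 with IL1b (Tnfaip3 in basophil-like and CFU-E-like cells, Nfkbiz in basophil-like and EryB-like cells, lower). In basophil-like cells, WT IL1b mice 1 to 4 had 1095, 76, 115 and 39 Tnfaip3 UMIs among 1746006, 704479, 1598005 and 518717. For Nfkbiz they had 507, 61, 115 and 49. Tet2-KO vehicle mouse 1 had the highest Nfkbiz level of its group in HSC-like and monocyte-primed progenitor-like cells. For the difference of the effects, SEs without the filter were smaller at similar log2 changes. For Tnfaip3 in basophil-like cells the SE was 0.24 in place of 1.10. The cause of the smaller SEs and of the added calls was not tested. Over all genes, the deviations of mice with the same number had a median correlation of -0.03 to 0.06 by type and of up to 0.57 in a single pair of mice, so the numbers were not taken to pair the mice, although the immediate early sums shifted with the pools. A replicate block for the pools gave 59 calls in WT (9 gained, 1 lost: Nfkb1 in HSC-like cells) and 65 in Tet2-KO mice (3 gained), and 0 in the other comparisons. Depth limits the scarce genes most: 3 UMIs were 3.46 to 70.2 CPM in HSC-like cells.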

Other observations

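Cell types with too few mice for a test gave the following sums over all mice of a group, with exact Poisson intervals that cover counting error only. In MPP-like cells (multipotent progenitors), Nfkbia was 60.4 CPM (95% interval 26.1 to 119) in WT vehicle, 686 (552 to 843) in WT IL1b, 71.8 (42.6 to 113) in Tet2-KO vehicle and 863 (741 to 1000.1) in Tet2-KO IL1b mice. In plasmacytoid dendritic cell-like cells it was 82.2, 223, 57.7 and 219 CPM in the same order, and in eosinophil-like cells 81.2, 164, 28.6 (3 UMIs) and 256 CPM.

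Cells without a hashtag call, which entered none of the main tests, held the same transcript. Among those in the pool of WT IL1b mice 3 and 4, Nfkbia was 1133 CPM in 142 HSC-like and 1114 CPM in 150 megakaryocyte progenitor-like cells. In the pool of WT IL1b mice 1 and 2 it was 219 CPM in 50 HSC-like and 380.4 CPM in 94 megakaryocyte progenitor-like cells, between the levels of its 2 mice. In the pool of Tet2-KO IL1b mice 1 and 2 it was 1411 CPM in 137 HSC-like cells, above both of its mice, and 1083 CPM in 60 megakaryocyte progenitor-like cells, between them. In the WT vehicle pools it was 48.4 and 98.2 CPM in HSC-like cells. The hashtag ratio rule left 3 HSC-like cells in Tet2-KO IL1b mouse 2 and 6 in WT IL1b mouse 1, and none in WT vehicle mouse 1 or Tet2-KO vehicle mouse 1, so the split of HSC-like cells within the pools of mice 1 and 2 depends on the hashtag rule.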
